A study of Homo sapiens with 10 samples.

Results

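Distal TRPS1 peaks that lie inside genes were examined in T47D cells, an established human breast cancer cell line. They are the peaks that the study's annotation places inside a gene and over 5 kb from the transcription start site (TSS) of the nearest gene. There were 342 such peaks among 1844 in all (18.5%, 95% Wilson interval 16.8 to 20.4%), and they made up 25.7% (23.5 to 28.2%) of the 1329 distal peaks. They named 289 host genes. The interval covers counting error only. The peaks came as 1 list of positions for 2 TRPS1 ChIP-seq libraries and 2 input libraries, and this list gives no height and no replicate error for a peak. Expression was read from RNA-seq of T47D cells that had received a control siRNA, an siRNA against *TRPS1* or one against *CHD4* 72 h earlier, with 2 libraries per group. The same 2 control libraries serve both knockdowns, and nothing in the labels says whether the replicates were separate cultures, so the p-values measure only the spread between these libraries. The labels name an siRNA for *CHD4*, while the methods of the RNA-seq name an shRNA.

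TRPS1 is an atypical member of the GATA family of transcription factors, which read short GATA elements in DNA through zinc fingers, and it is known mainly as a repressor. NuRD is a complex that combines the nucleosome remodelling enzyme CHD4 with histone deacetylases and is recruited to DNA by such factors. Regulatory elements far from a TSS often lie in introns, where they may act on the gene around them or on another gene, so a host gene is the gene around a peak and not necessarily its target. In luminal breast cells GATA factors work beside the oestrogen receptor and FOXA1 on distal elements of this kind.

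Although the peaks are distal by the study's annotation, 16 of them overlapped the window around a start that RefSeq lists (from 250 bases before it to 50 after it). These include alternative starts of the host, and starts of genes within or against it. The stretches below are shown because a TRPS1 peak covers bases directly before a start. They are the bases shared by the peak and the 250 bases before the start, from RefSeq (GRCh38.p14), and run 5′ to 3′ on the strand of the gene that starts there. Capitals mark a match on either strand to one of 4 GATA words, which are AGATAA, its variant AGATAG with another last base, TGATAA with another first base, and TGATAG with both.
*EHF* start, GRCh38 chr11:34632316-34632565, plus strand: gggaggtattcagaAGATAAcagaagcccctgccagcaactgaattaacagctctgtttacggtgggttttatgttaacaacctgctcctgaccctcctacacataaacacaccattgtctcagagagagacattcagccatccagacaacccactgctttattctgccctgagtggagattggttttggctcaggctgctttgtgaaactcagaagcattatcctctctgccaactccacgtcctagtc
*PHACTR2* start, GRCh38 chr6:143677741-143677964, plus strand: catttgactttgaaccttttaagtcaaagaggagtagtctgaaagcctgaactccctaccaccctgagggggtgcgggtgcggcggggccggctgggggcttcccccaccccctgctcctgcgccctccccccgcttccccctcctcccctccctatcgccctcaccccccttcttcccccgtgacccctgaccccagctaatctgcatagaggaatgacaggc
*BFSP2-AS1* start, GRCh38 chr3:133456060-133456272, minus strand: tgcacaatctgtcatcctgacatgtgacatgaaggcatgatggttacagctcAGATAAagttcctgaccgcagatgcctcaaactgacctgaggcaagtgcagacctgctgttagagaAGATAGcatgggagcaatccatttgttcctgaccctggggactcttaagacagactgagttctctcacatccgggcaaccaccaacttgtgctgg
*CEP164* start, GRCh38 chr11:117327604-117327853, plus strand: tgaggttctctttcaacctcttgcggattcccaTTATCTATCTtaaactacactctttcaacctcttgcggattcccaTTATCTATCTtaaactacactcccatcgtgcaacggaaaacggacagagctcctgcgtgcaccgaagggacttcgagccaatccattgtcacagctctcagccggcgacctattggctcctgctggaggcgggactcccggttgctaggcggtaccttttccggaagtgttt
*SYT3* start, GRCh38 chr19:50658106-50658355, minus strand: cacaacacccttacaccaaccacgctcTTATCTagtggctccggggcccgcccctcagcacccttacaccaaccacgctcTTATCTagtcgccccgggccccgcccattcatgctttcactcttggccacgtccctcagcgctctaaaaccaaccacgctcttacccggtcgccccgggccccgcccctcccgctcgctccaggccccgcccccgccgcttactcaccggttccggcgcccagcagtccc
The *EHF* stretch is part of the widest of the 342 peaks, and EHF is an ETS transcription factor of epithelial cells. *PHACTR2*, an actin and phosphatase regulator, has no GATA word in these bases. The *BFSP2-AS1* start lies inside *BFSP2*, which encodes a lens filament protein, and holds 2 words. The *CEP164* stretch, before another listed start of a centriole gene, holds 4 matches, in 2 places where words overlap. The *SYT3* start, of a synaptotagmin gene, lies in *C19orf81* and holds 2. Of the 18 windows overlapped, 6 (33.3%) held a word in the 250 bases before the start, against 7814 of 34943 (22.4%) over all listed windows. A match is a description of letters and not a bound site.

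The regions of 6 host genes were chosen by the study for ChIP-qPCR, and the designed primers are shown because the expression of these hosts is described below. Where they lie relative to the peaks was not analysed here.
*ABCA12* forward primer: ggaatcagatgggcctatgt
*ABCA12* reverse primer: tagctccaaggaagtctcag
*AMOTL1* forward primer: aataagtaattgtttggata
*AMOTL1* reverse primer: aacatacaatgagttgggac
*NAALADL2* forward primer: cccccaggtgactgtatttg
*NAALADL2* reverse primer: gccctctggtgtctcttctt
*NLGN1* forward primer: ctagagggaagtaaaggaga
*NLGN1* reverse primer: cagtatctccatttgaccat
*NTN4* forward primer: agtaaggacttgttgaggct
*NTN4* reverse primer: ttttgatcttcactggttct
*RNF43* forward primer: cccacccgaacaaacattaa
*RNF43* reverse primer: acaggtgcatcaactcttcc
The 342 peaks were narrow, with a median width of 285 bp (range 207 to 1224 bp) against 288 bp over all peaks. Each host was matched to RefSeq by its gene ID, and 335 peaks (98.0%) also lay inside the RefSeq span of their host. Distances to the RefSeq start of the host, taken as the outer end of its span, had a median of 34.5 kb (quartiles 14.97 and 79.4 kb). Another listed start of the same gene can lie nearer. At 10 to 50 kb from the start lay 163 peaks (47.7%), and 73 peaks (21.3%, 17.3 to 26.0%) lay over 100 kb away. By RefSeq, 9 peaks were within 5 kb of the start. Counting every start that RefSeq lists, 45 of 328 peaks (13.7%, 10.4 to 17.9%) were within 5 kb of one. The nearest listed start was one of the host itself, its outer start included, for 30 of them and of another gene for 15. For the other 14 peaks no listed starts were used here.

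Along the host gene, the peaks lay more often in the first part than in the last. There were 90 peaks in the first 20% of the gene length, 105 in the next, then 68, 40 and 32 in the last 20%, and 7 outside the span. The median position was 35.4% of the gene length. The choice of peaks over 5 kb from a TSS by the study's annotation bears on these counts.

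**Figure D1:**
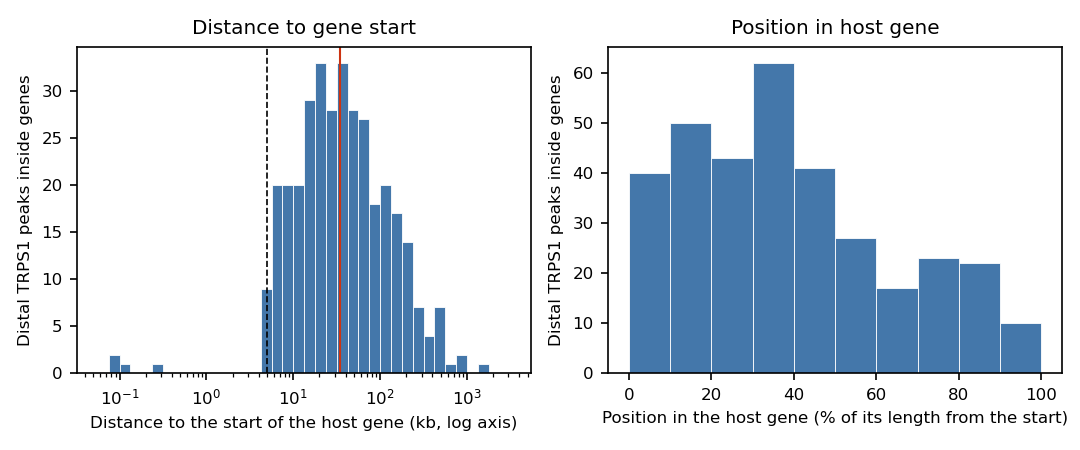
Left, distance of each of the 342 distal peaks inside genes to the RefSeq start of its host (kb, log axis; dashed line, 5 kb; red line, the median of 34.5 kb). Right, position of the 335 peaks inside the RefSeq span, in percent of the gene length from the start; most lie in the first part.

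The 5 widest peaks were found in *EHF* (1224 bp), *RAD51B* (1022 bp), *NAALADL2* (948 bp), *RERG* (925 bp) and *KDM4B* (810 bp). *RAD51B* is a homologous recombination gene, *RERG* a small GTPase gene named for its response to oestrogen, and *KDM4B* a histone demethylase gene. The farthest peak was chr3:77563075-77563322 in *ROBO2*, the gene of a receptor for Slit guidance proteins, at 1656.4 kb from the start, close to the end of the gene. *ZFHX3*, a homeobox gene, held peaks at 966.6 and 894.6 kb, but these were 122821 and 50814 bp from another listed start of *ZFHX3*. The synaptic adhesion gene *NLGN1* held 1 at 729.4 kb. The wide peak of *NAALADL2* was at 514.4 kb, and 96090 bp from another listed start of that gene. The peaks just past the 5 kb limit by the study's annotation were those in *ZBTB39* (4.81 kb by RefSeq), *HSD17B2* (5.16 kb) and *SYT12* (20.98 kb). Those just under it were in *HRASLS2* (5.998 kb), *GSR* (4.52 kb) and *CNBD1* (4.71 kb).

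Host genes were long. The median span was 101.1 kb, against 24.1 kb over all RefSeq coding genes, and 148 of 289 (51.2%, 45.5 to 56.9%) exceeded 100 kb. Of the hosts, 264 were protein coding, 20 were long noncoding RNAs and 5 were transcribed pseudogenes, with 146 on the plus and 143 on the minus strand. A single peak was found in 249 hosts, 2 peaks in 32 and 3 or more in 8. Chromosome 3 had the most, with 39 of its 156 peaks (95% Wilson interval 18.9 to 32.3%). Also, 12 hosts had a peak within 5 kb of a TSS, and 52 of the peaks had another RefSeq gene around them. The annotation decided which gene was named: 263 of the 987 distal peaks that the study's annotation does not place inside a gene (26.6%) lie inside a RefSeq coding gene.

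The 8 hosts with 3 or more peaks included genes of adhesion and the matrix (*NCAM2* and *VCAN*) and of signalling (*ARHGAP15* and *PHACTR1*). *NCAM2*, a neural adhesion molecule gene, held 5 peaks over 243.4 kb, and its first 3 lay within 32.0 kb of the start. *ARHGAP15*, which encodes a GTPase-activating protein for Rac, held 4 over a stretch of 199967 bp. The long noncoding RNA gene *DIRC3* held 4 over 62.2 kb, all in the last part of the gene (79.4 to 91.7% of its length). *BFSP2* held 4 over 33.8 kb, and 3 of them were within 5 kb of the *BFSP2-AS1* start. There were 3 peaks each in *PHACTR1* (55.7 kb), *PRLR*, the prolactin receptor gene (26.5 kb), *RAD51B* (201.3 kb) and *VCAN*, which encodes the matrix proteoglycan versican (61.1 kb).

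RNA-seq libraries held 10333138 to 14668358 counts. Levels below are CPM (counts scaled to a common library size with TMM factors, so that a control value can differ slightly between the comparisons), and they are compared within a gene only. The floor of 3 counts amounts to 0.195 to 0.283 CPM. *TRPS1* was at 1423 and 2234 CPM in control siRNA and at 1147 and 716 CPM in *TRPS1* siRNA (log2 fold change −0.97, SE 0.39), below control in both libraries but short of a fold change of 2. *CHD4* was at 296 and 282 CPM in control and at 94.9 and 53.8 CPM in *CHD4* siRNA (−1.96, SE 0.42). Control replicate 1 stood apart, with a correlation of log CPM across genes of 0.840 to 0.865 with every other library, while the others correlated at 0.937 to 0.976. Results are therefore also given without it, which leaves 1 control library, so that those fits hold no spread between controls. The luminal markers *KRT8*, *KRT18*, *KRT19*, *ESR1*, *PGR*, *GATA3*, *FOXA1*, *EPCAM* and *CDH1* summed to 11270 to 14492 CPM in control and 5269 to 7009 CPM in the knockdowns. The sum was lower in all 4 knockdown libraries, carried by *KRT8*, *KRT18* and *KRT19*, whereas *EPCAM*, *PGR*, *FOXA1* and *CDH1* overlapped between control and each knockdown. Of the markers of other cells, *KRT5*, *KRT14*, *COL1A2* and *PECAM1* were at or near 0 where listed, *COL1A1* and *VIM* were not, and the sum was 60.3 to 156 CPM. The part of these shifts in the results below was not tested. In bulk RNA, fewer cells of a type and less RNA per cell cannot be told apart.

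The question of the first comparison was what happened to the expression of the host genes upon silencing *TRPS1*. Of 289 hosts, 17 symbols were not in the count table, 37 were below the filter of over 2 CPM in at least 2 libraries, and 235 were tested, of which 225 exceeded 2 CPM in all 4 libraries. At the threshold of the study, a fold change over 2 with an unadjusted p under 0.05, 15 hosts were higher (6.38%) and 6 were lower (2.55%). Over all 12921 genes tested 2.7% were higher and 3.17% lower. In edgeR's quasi-likelihood test, 0 hosts had an adjusted p under 0.05 (smallest 0.659), and 0.0% of all genes did. An unadjusted p under 0.05 was reached by 24 hosts and by 902 of all 12921 genes. At an adjusted p under 0.05, edgeR's likelihood ratio test and DESeq2 each gave 3 hosts, beside 0.263% and 0.302% of all genes. The median log2 fold change of the hosts was 0.03, against −0.02 over all genes. Without control replicate 1, 11 hosts were higher and 4 lower, and 5.71% and 2.4% of all genes. Of the 15 higher hosts 7 stayed past the threshold, while *ABCA12*, *ANKRD30B*, *DST*, *EPB41L4A*, *INPP4B*, *ROBO2*, *SORBS2* and *VCAN* were at folds of 1.66 to 1.98. Of the 6 lower hosts 4 stayed.

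*NAALADL2*, a gene related by sequence to glutamate carboxypeptidases, held 2 of the distal peaks inside genes, 508.7 and 514.4 kb from its outermost start. The same *NAALADL2* peaks were 90335 and 96090 bp from a nearer listed start of the gene. *NAALADL2* was also named as the nearest gene of peaks within 5 kb of a TSS and of peaks outside genes beyond 50 kb. Its level was 17.8 and 40.9 CPM in control and 201 and 149.8 CPM in *TRPS1* siRNA, a fold of 5.97 (log2 2.58, SE 0.50). Both knockdown libraries were above both controls. Without control replicate 1, its fold was 4.29.

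*PHACTR2* was at 19.99 and 29.3 CPM in control and 88.8 and 83.5 CPM upon silencing *TRPS1*, a fold of 3.5. *RNF43*, a ubiquitin ligase gene that restrains Wnt receptors, was at 9.09 and 10.4 CPM against 36.1 and 25.97 CPM, a fold of 3.18. *AMOTL1*, which encodes a junction protein that binds YAP, was at 13.9 and 17.7 against 51.4 and 42.4 CPM, a fold of 2.97. In each of these genes the libraries of the groups did not overlap, which was so for 22.8% of all genes in this direction.

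*NTN4*, the gene of a secreted netrin of basement membranes, was at 17.7 CPM in both controls and at 53.9 and 50.8 CPM in *TRPS1* siRNA, a fold of 2.96 (log2 1.57, SE 0.35). *ABCA12*, a lipid transporter gene, was at 107 and 171 against 379.7 and 293 CPM, a fold of 2.42. These 2 genes, with *NAALADL2*, *RNF43*, *AMOTL1* and *NLGN1*, were picked by the study on these samples, so their direction is not independent evidence. *NLGN1* was at 2.96 and 4.16 against 7.74 and 8.27 CPM, a fold of 2.25 that did not pass (unadjusted p = 0.0644).

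Among the other hosts past the threshold, *FUT9*, a fucosyltransferase gene, was at 0.65 and 3.57 CPM in control and 10.8 and 8.72 CPM in *TRPS1* siRNA, and its fold of 4.61 was 2.72 without control replicate 1. *VCAN*, with 3 peaks, was at 31.6 and 57.9 against 142 and 87.4 CPM, a fold of 2.57. *AMN1* was at 6.06 and 11.1 against 25.9 and 24.1 CPM. *ANKRD30B*, which has close copies among ankyrin repeat genes so that its reads are uncertain, was at 6.86 and 18.9 against 33.7 and 30.6 CPM.

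A group of adhesion, matrix and cytoskeleton hosts, assigned by hand with earlier results of these data known, held 6 of the 15. *AMOTL1*, *DST*, *NTN4*, *ROBO2*, *SORBS2* and *VCAN* were higher and 0 lower among 22 tested (27.3%, against 2.7% of all genes). The median log2 fold change was 0.65 against −0.02 over all genes. All 6 span over 100 kb, and of all genes that long 4.58% were higher and 34.3% did not overlap in this direction. *AMOTL1* and *NTN4* were picked by the study on these samples, so this count is not independent evidence. *DST*, the gene of a linker of hemidesmosomes, was at 125 and 268 CPM in control and 495 and 395 CPM upon silencing. *ROBO2* was at 9.82 and 15.5 against 29.2 and 26.4 CPM, and *SORBS2*, an adaptor gene of the actin skeleton, was at 12.5 and 17.01 against 33.0 and 31.9 CPM. These 3 and *EPB41L4A*, a membrane skeleton gene that was also higher (14.9 and 18.9 against 40.0 and 29.0 CPM), ranked below the 10 largest differences and are named after their values were seen. *NCAM2* was at 201 and 245 against 471 and 417 CPM, a fold of 1.99 just under the threshold. The knockdown libraries were above both controls in 13 of the 22 (59.1%, against 22.8% of all genes), but without control replicate 1 the folds of *DST*, *ROBO2*, *SORBS2* and *VCAN* were under 2 (1.66, 1.79, 1.91 and 1.98).

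The 6 lower hosts included *ACOX2*, which encodes a peroxisomal oxidase of branched fatty acids and bile acid precursors, with a peak 14.8 kb from its start. It was at 19.3 and 18.4 CPM in control and 4.25 and 5.40 CPM in *TRPS1* siRNA (log2 −1.96, SE 0.43). *FAM65C* was at 105 and 119.8 against 36.8 and 27.9 CPM (log2 −1.80, SE 0.35, and −1.89 without control replicate 1). *MYOF*, which encodes the membrane repair protein myoferlin and held 2 peaks, was at 595 and 520.0 against 252 and 166 CPM. In these 3 genes the 2 controls lay close together and far above the knockdown libraries.

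The remaining 3 were *SERPINI1*, the neuroserpin gene (17.9 and 24.96 against 7.08 and 9.83 CPM), *ST3GAL1*, a sialyltransferase gene of O-glycans (285 and 191 against 106 and 92.4 CPM), and *OLFM1*, an olfactomedin gene (518 and 268 against 119 and 206 CPM). Without control replicate 1 the last of these was under a fold of 2 (log2 −0.72), as was *ST3GAL1* (−0.94). With 1 *TRPS1* siRNA library left out, the 15 higher and 6 lower hosts kept their direction, but 2 or 6 of the 15 and 2 of the 6 were past the threshold.

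**Figure D2:**
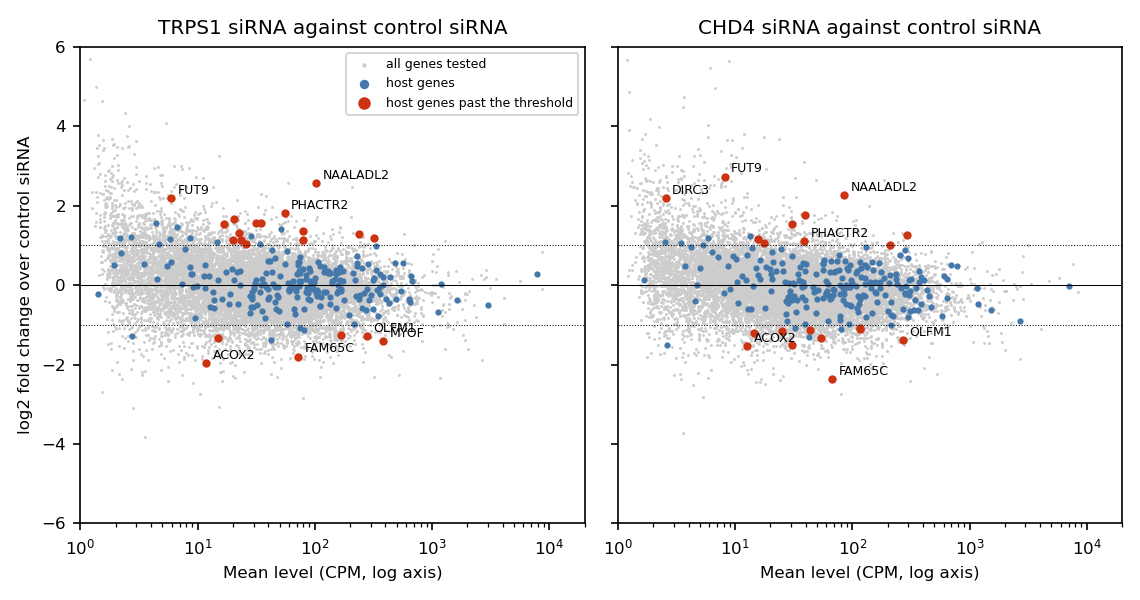
The log2 fold change over control siRNA of each gene against its mean level over the 4 libraries (CPM, log axis) for *TRPS1* siRNA (left) and *CHD4* siRNA (right). Grey points are all genes tested, blue points host genes and red points host genes past the threshold (unadjusted p under 0.05 and a fold over 2, dotted lines): 15 higher and 6 lower on the left, 10 and 10 on the right.

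Upon silencing *CHD4*, 233 hosts were tested, 10 of which were higher (4.29%) and 10 lower (4.29%) at the same threshold. Of the 10 higher hosts 1, *DIRC3*, entered the test only through the knockdown libraries. Over all 12918 genes, 2.6% were higher and 2.85% lower. In edgeR's quasi-likelihood test 0 hosts had an adjusted p under 0.05 (smallest 0.749), with 0.0% of all genes. An unadjusted p under 0.05 was reached by 22 hosts and by 769 of all 12918 genes. At an adjusted p under 0.05, the likelihood ratio test and DESeq2 each gave 3 hosts, beside 0.449% and 0.387% of all genes. Without TMM factors the split was 11 higher and 6 lower, and 3.55% and 1.72% of all genes. Without control replicate 1 it was 11 and 8, and 5.68% and 2.06% of all genes. The controls are shared with the comparison above, so the values of both knockdowns are given side by side for the same genes and not as support of each other.

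*NAALADL2* was at 176 and 106 CPM in *CHD4* siRNA, a fold of 4.8 over control (log2 2.26, SE 0.53). *FUT9* was at 18.3 and 9.94 CPM (log2 2.74, SE 0.84), and *NTN4* at 69.3 and 51.8 CPM (log2 1.77, SE 0.40). *AMOTL1* was at 51.96 and 39.7 CPM (log2 1.54), *RNF43* at 25.98 and 17.6 CPM (1.16), *PHACTR2* at 51.1 and 55.1 CPM (1.11) and *ABCA12* at 327 and 229 CPM (1.00). All 7 had both knockdown libraries above both controls, as 20.1% of all genes did, and without control replicate 1 the last 2 were at log2 fold changes of 0.87 and 0.71. The fold of *FUT9* was 6.67 with both controls and 3.97 without replicate 1. *NLGN1*, at 8.32 and 7.87 CPM, again did not pass (unadjusted p = 0.0754).

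*DIRC3* was at 0.65 and 1.19 CPM in control and 3.42 and 5.01 CPM in *CHD4* siRNA (log2 2.19, SE 0.76). It entered the test only through the knockdown libraries, so that it had to differ, and it was below the filter upon silencing *TRPS1* (1.23 and 3.71 CPM). *ZKSCAN1*, a zinc finger gene, was at 147 and 200 CPM in control against 469 and 360.1 CPM, a fold of 2.39. *RAP1GAP*, which encodes an inactivator of the GTPase Rap1, was at 12.8 and 10.3 against 27.9 and 20.2 CPM, a fold of 2.09.

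On the lower side, *FAM65C* was at 28.8 and 14.8 CPM (log2 −2.37, SE 0.46), *ACOX2* at 5.45 and 7.47 CPM (−1.54, SE 0.46) and *OLFM1* at 152 and 149 CPM (−1.39, SE 0.42). *CAP2*, an actin regulator gene, was at 50.3 and 39.3 CPM in control and 19.8 and 11.7 CPM upon silencing *CHD4*. *WIPI1*, an autophagy gene, was at 88.4 and 66.7 against 36.5 and 25.7 CPM, and *UBE2E2*, a ubiquitin-conjugating enzyme gene, at 15.1 and 25.2 against 10.3 and 7.31 CPM. In each of these the 2 knockdown libraries lay below both controls, as in 19.7% of all genes.

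*PHACTR1*, with 3 peaks, was at 65.5 and 53.2 CPM in control against 33.4 and 20.7 CPM, and *WBP1L* at 179 and 137 against 76.4 and 69.7 CPM. *EPS15L1*, an endocytosis gene, was at 197 and 115 against 89.7 and 59.4 CPM. *PPARD*, which encodes a nuclear receptor for fatty acids, was at 47.96 and 21.9 against 16.2 and 15.2 CPM. Without control replicate 1 these 4 and *OLFM1* were under a fold of 2, with *PPARD* at a log2 fold change of −0.47. With 1 *CHD4* siRNA library left out, 1 or 5 of the 10 higher and 2 or 1 of the 10 lower hosts were past the threshold.

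**Figure D3:**
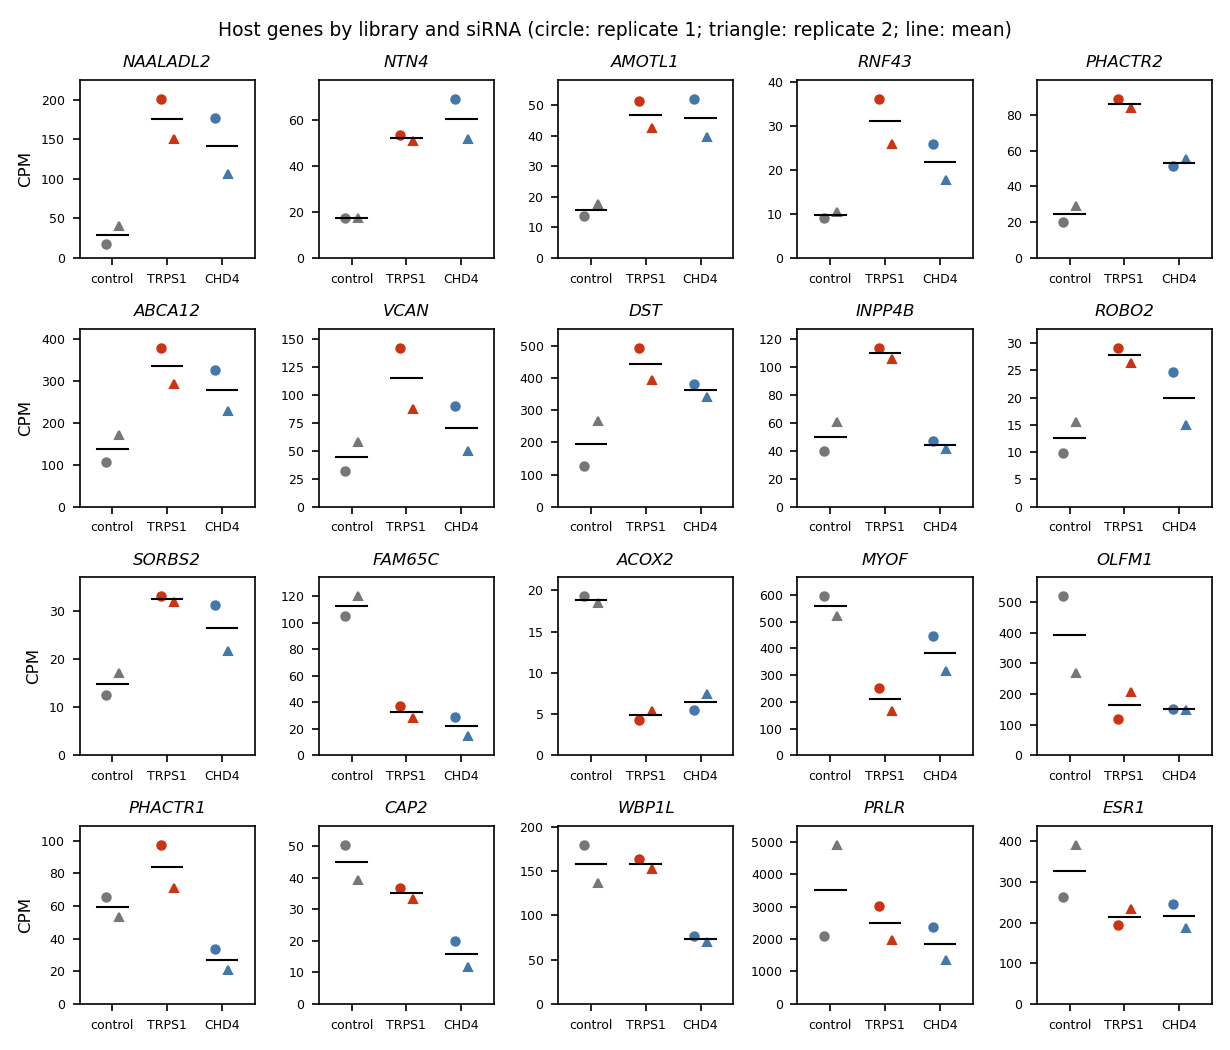
Level (CPM, linear axis from 0) of 20 host genes in each of the 6 libraries. Circles are replicate 1, triangles replicate 2 and lines the mean of 2; controls are grey, *TRPS1* siRNA red and *CHD4* siRNA blue. *NAALADL2* and *NTN4* are higher in all 4 knockdown libraries than in both controls, *INPP4B* in *TRPS1* siRNA alone, and *WBP1L* is lower in *CHD4* siRNA alone.

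The 2 knockdowns were also compared directly, which needs no control library; this test was added after the values had been seen. Of 234 hosts tested, 9 were lower in *CHD4* siRNA than in *TRPS1* siRNA (3.85%) and 1 was higher (0.427%) at the same threshold, against 1.56% and 2.12% of all 13143 genes. No host passed an adjusted p under 0.05 in edgeR's quasi-likelihood test (smallest 0.0903). In its likelihood ratio test 19 hosts did and in DESeq2 18, beside 4.34% and 3.47% of all genes. With the replicate number as a block 84 hosts did, beside 25.7% of all genes. Deviations of same-numbered knockdown libraries correlated at 0.62, but no label says that a number marks a shared batch. *INPP4B*, which encodes a phosphatase that restrains AKT signalling and holds a peak 230.9 kb from its start, was at 119 and 110.1 CPM in *TRPS1* siRNA and 49.4 and 42.9 CPM in *CHD4* siRNA (log2 −1.31, SE 0.16). *PHACTR1* was at 102 and 73.97 against 35.1 and 21.5 CPM (−1.63, SE 0.29), and *WBP1L* at 171 and 159 against 80.4 and 72.5 CPM (−1.11, SE 0.14). *ST3GAL1* was the 1 in the other direction, at 111 and 96.5 against 291 and 221 CPM (log2 1.30, SE 0.19).

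*AMN1* (log2 −1.73), *UBE2E2* (−1.56) and *CAP2* (−1.15) were also lower in *CHD4* siRNA, as were *FGD3* (−1.59), *SGMS2* (−1.53) and *TYRP1* (−1.35), which are named here after their values were seen. *NAALADL2* differed by −0.31 (SE 0.28) between the knockdowns, which is close to its standard error. *NCAM2* was at 492 and 435 CPM in *TRPS1* siRNA against 279 and 239.9 CPM in *CHD4* siRNA, a log2 difference of −0.84 (SE 0.16) that is under a fold of 2.

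Hormone-related hosts were 9. *ESR1*, which encodes the oestrogen receptor and held a peak 107.6 kb from its start, was at 264 and 391 CPM in control, 195 and 233 CPM in *TRPS1* siRNA and 244 and 186 CPM in *CHD4* siRNA. The log2 fold changes were −0.61 (SE 0.35) and −0.61 (SE 0.38), and neither passed. *PRLR* was at 2092 and 4897 CPM in control, and at 3014 and 1963 CPM and then 2372 and 1345 CPM in the knockdowns, so that the groups overlapped. Its log2 fold changes of −0.49 and −0.91 did not pass, and the first was 0.25 without control replicate 2.

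*IGFBP4*, which encodes a binding protein of insulin-like growth factors, was at 721 and 386 CPM in control against 463 and 401 CPM and then 769.8 and 525 CPM. *RERG* was at 43.2 and 98.9 against 85.2 and 67.9 CPM and then 77.8 and 54.3 CPM. In both the groups overlapped. *INPP4B* was at 39.5 and 60.5 CPM in control against 114 and 105 CPM in *TRPS1* siRNA (log2 1.13, SE 0.37, past the threshold, but a fold of 1.81 without control replicate 1) and 46.9 and 41.3 CPM in *CHD4* siRNA, and *PPARD* passed on the lower side upon silencing *CHD4* as given above. *HSD17B2* was at most 1.13 CPM and *BTC* at most 0.325 CPM in any library, and *PYY* was not in the count tables.

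Of the hosts with 3 or more peaks not yet given, *ARHGAP15* was at 10.2 and 34.8 CPM in control against 44.2 and 47.5 CPM and then 39.3 and 18.3 CPM, with log2 fold changes of 1.03 and 0.35 that did not pass. *RAD51B* was at 27.5 and 64.5 CPM against 44.9 and 63.9 and then 69.8 and 64.9 CPM. *BFSP2* was at 4.76 and 3.05 CPM against 1.79 and 1.43 and then 1.48 and 1.27 CPM, with log2 fold changes of −1.28 and −1.50 that did not pass. It entered both tests only through the control libraries, so that it had to differ. *NCAM2* had a log2 fold change of 0.15 upon silencing *CHD4*. Hosts with 2 or more peaks were higher in 3 of 34 upon silencing *TRPS1* (8.82%), and those with 1 peak in 12 of 201 (5.97%), against 2.7% of all genes. Upon silencing *CHD4* these were 2 of 34 (5.88%) and 8 of 199 (4.02%), against 2.6%. The difference between hosts with 1 and with more peaks was not tested. The reads of a gene and of an antisense gene within it cannot be told apart here, since no source used states that strand was counted.

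Of transcription and chromatin hosts, 0 of 34 were higher or lower upon silencing *TRPS1* (median log2 fold change 0.06), beside 2.7% and 3.17% of all genes. Upon silencing *CHD4* 1 of 32 was higher (3.12%), *ZKSCAN1*, beside 2.6%. In groups of this size such counts are near the background share. *EHF*, with the widest peak, was at 348 and 559 CPM in control against 690.4 and 646 CPM in *TRPS1* siRNA (log2 0.56, SE 0.35) and 493 and 337 CPM in *CHD4* siRNA. *KDM4B* was at 284 and 207 against 225 and 186 CPM and then 224 and 139.8 CPM. Signalling hosts had 2 higher of 28 upon silencing *TRPS1* (7.14%, *PHACTR2* and *RNF43*), against 2.7% of all genes. Upon silencing *CHD4* they had 3 higher (10.7%, those 2 and *RAP1GAP*) against 2.6%, and 1 lower (3.57%, *PHACTR1*) against 2.85%. Channel and transporter hosts had 1 of 17 higher in each (5.88%, beside 2.7% and 2.6% of all genes), *ABCA12*, which is 1 call in a small group.

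Of 12 enzymes of glycans and lipids, *FUT9* was higher and *ACOX2* and *ST3GAL1* lower upon silencing *TRPS1*. Upon silencing *CHD4* *FUT9* was higher and *ACOX2* lower. In 12 genes 1 call is 8.33%, beside 2.7% higher and 3.17% lower of all genes for *TRPS1*, and 2.6% and 2.85% for *CHD4*. Of 6 noncoding hosts tested, *DIRC3* was the 1 past the threshold, and since it had to differ it says nothing about the group. The adhesion group had 2 of 22 higher upon silencing *CHD4* (9.09%, *AMOTL1* and *NTN4*), against 2.6% of all genes, with a median log2 fold change of 0.22. Both genes were picked by the study on these samples.

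In the list of *TRPS1*, *GATA3* and NuRD genes, 15 of 15 were tested. At the same threshold, 0 were higher and 1 was lower (6.67%) upon silencing *TRPS1*, beside 2.7% and 3.17% of all genes. The lower gene was *GATAD2A*, a NuRD scaffold gene (92.4 and 49.6 CPM against 19.8 and 17.1 CPM, log2 −1.94, SE 0.44). It is 1 call in a small list. Upon silencing *CHD4* the 1 lower gene was *CHD4* itself. *CHD4* was at 297 and 266 CPM in *TRPS1* siRNA, and *TRPS1* at 2427 and 1573 CPM in *CHD4* siRNA.

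Gene length moved with these counts. The 127 tested hosts over 100 kb included 13 of the 15 that were higher upon silencing *TRPS1* (10.2%) and 3 of the 6 lower ones (2.36%), while the 108 shorter hosts had 2 (1.85%) and 3 (2.78%). Over all 2142 tested genes longer than 100 kb, 4.58% were higher and 0.747% lower, with a median log2 fold change of 0.21 against −0.21 in genes up to 10 kb. Upon silencing *CHD4* the hosts over 100 kb had 7 higher (5.56%) and 5 lower (3.97%) of 126, and all genes of this length had 4.55% and 0.696%. The part of length in the calls of the hosts was not tested. Hosts of peaks over 50 kb from the TSS held 12 of the 15 higher and 2 of the 6 lower hosts upon silencing *TRPS1*. Such peaks were 122 of the 342. A peak this far inside a gene needs a long host, so distance and length cannot be told apart in this count.

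Set beside the nearest genes of the other peaks, the hosts had the smallest share of lower genes in both knockdowns (2.55% and 4.29%). Over all genes 3.17% were lower upon silencing *TRPS1* and 2.85% upon silencing *CHD4*. The hosts' shares of higher genes (6.38% and 4.29%) lay between those of the others, beside 2.7% and 2.6% of all genes. These lists share genes, since 26 hosts were also the nearest gene of a distal peak outside genes and 12 of a peak within 5 kb of a TSS. Upon silencing *TRPS1*, the nearest genes of peaks within 5 kb of a TSS were higher in 3.05% and lower in 4.23% of 426, those of peaks outside genes at 5 to 50 kb in 9.21% and 7.89% of 228, and those beyond 50 kb in 8.24% and 4.95% of 182. Upon silencing *CHD4* the shares were 2.59% and 4.47%, 3.48% and 7.83%, and 6.52% and 6.52%. The differences between these shares were not tested.

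**Figure D4:**
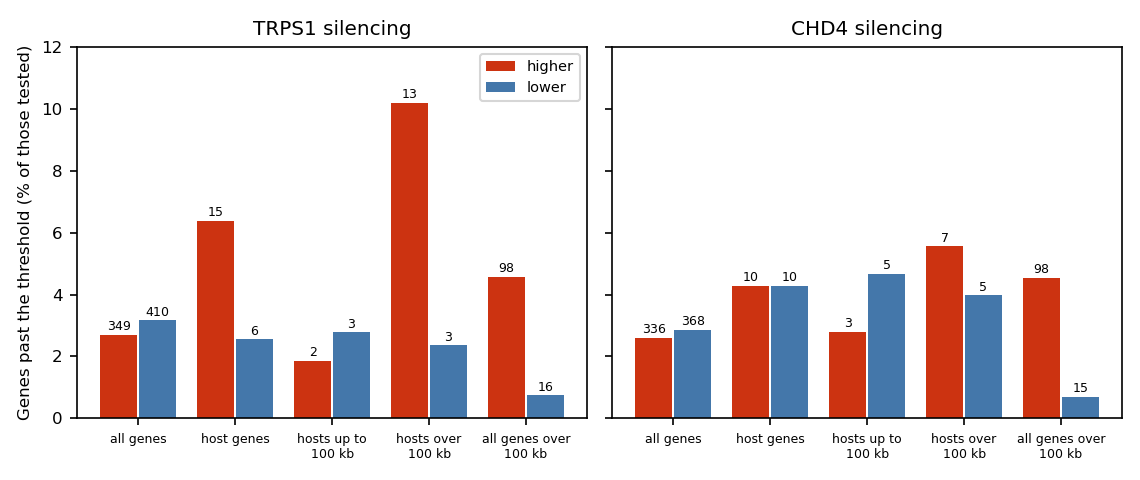
Share of tested genes past the threshold (unadjusted p under 0.05 and a fold over 2), higher in red and lower in blue, with the number of genes above each bar, for *TRPS1* silencing (left) and *CHD4* silencing (right). Of the bars shown upon silencing *TRPS1*, hosts over 100 kb have the highest share of higher genes (10.2%), and all genes of that length reach 4.58%.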

How the data were processed

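TRPS1 ChIP-seq and input libraries and control, *TRPS1* and *CHD4* siRNA RNA-seq libraries were grouped by their labels. The authors aligned ChIP-seq reads with BWA (0.7.12-r1039), called peaks with MACS2 (2.1.1, on hg38 per the labels) and counted RNA-seq reads with HTSeq (0.9.0, aligned with STAR per the methods). The deposited peak list holds positions in bp and no score. The deposited gene counts are not normalized. Peaks were joined by name to the study's annotation, which chose the peaks and hosts, and positions of genes are RefSeq GRCh38.p14. Hosts were found in the counts by symbol, with 3 matched by another symbol of the same gene.

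Each knockdown was compared with control in edgeR (4.0.16, R 4.3.3): genes over 2 CPM in at least 2 of 4 libraries, TMM factors, quasi-likelihood F-test, prior count 0.125, adjustment over all genes tested. The SE is the log2 fold change over the square root of F. Calls use a fold change over 2 and unadjusted p under 0.05, as in the study, or an adjusted p under 0.05. The fit was tested on simulated data. An exact permutation test of 2 against 2 libraries cannot give a p under 0.333. The hosts, role groups and lists were chosen with earlier results of these data known. Named genes are, per comparison, up to 10 hosts in each direction past the threshold, hosts with 3 or more peaks, those of the ChIP-qPCR and hormone-related ones. Alternatives are listed with their effect in the closing section. No genome was at hand, so peak sequences and exons were not analysed here.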

Additional observations from a re-analysis of the deposited data

How the results depend on the processing

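Hosts counted past the threshold (unadjusted p under 0.05 and a fold over 2) stayed within 1.5 times of the 15 and 6 (*TRPS1* silencing) and 10 and 10 (*CHD4* silencing) under most alternatives tried. Exceptions for lower hosts were, upon silencing *TRPS1*, 10 with no filter on low counts, 2 for peaks over 50 kb from the TSS, 2 for peaks of higher enrichment in the study's annotation and 3 for peaks over 5 kb from every listed RefSeq start (added after the data were seen), and, upon silencing *CHD4*, 6 with library sizes alone, 3 for peaks over 50 kb and 2 for peaks of higher enrichment. Library sizes alone moved the median log2 fold change of all genes from −0.02 to 0.10 (*TRPS1*) and 0.11 (*CHD4*). Leaving out 1 library gave 2 to 40 higher and 2 to 24 lower hosts upon silencing *TRPS1*, and 1 to 36 higher and 1 to 25 lower upon silencing *CHD4*. The largest counts came without control replicate 2, when replicate 1 is the only control. The shares of all genes past the threshold were also largest in those fits, in both directions and upon both silencings. The largest counts therefore do not single out the hosts. At an adjusted p under 0.05, the 0 hosts upon silencing *TRPS1* became 3 with the likelihood ratio test and 3 with DESeq2 (*FAM65C*, *NAALADL2* and *PHACTR2*), and 0 to 108 with a library left out, 10 of them without control replicate 1. Upon silencing *CHD4* they became 3 with the likelihood ratio test and 3 with DESeq2 (*FAM65C*, *NAALADL2* and *NTN4*), 3 with no filter on low counts, and 0 to 67. Between the knockdowns they became 19 with the likelihood ratio test, 18 with DESeq2 and 0 to 12 with a library left out, while the 1 higher host became 2 to 6 and the 9 lower hosts 9 to 17. Each count with a library left out comes from a separate fit, so none of them is a part of another. Upon silencing *TRPS1* and upon silencing *CHD4*, the share of all genes at an adjusted p under 0.05 was also largest without control replicate 2. The upper ends of those ranges therefore do not single out the hosts either. The cause of the changes between settings was not tested.

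With the replicate number as a block, the hosts past the threshold numbered 20 higher and 7 lower (*TRPS1*) and 11 and 9 (*CHD4*). Over all genes this block gave 5.73% and 3.71% (*TRPS1*) and 4.51% and 2.93% (*CHD4*). At an adjusted p under 0.05 the hosts numbered 1, 2 and, between the knockdowns, 84, beside 0.248%, 0.341% and 25.7% of all genes. Deviations of same-numbered libraries correlated at 0.05 (*TRPS1* and control), 0.01 (*CHD4* and control) and 0.62 (both knockdowns), with no label saying that a number marks a shared batch. Distal peaks inside genes numbered 410 at over 1 kb, 290 at over 10 kb, 122 at over 50 kb, 343 with peaks over a gene's end and 175 in the peaks of higher enrichment. By RefSeq alone, 561 peaks lay inside a coding gene and over 5 kb from the outer start of every gene of known strand. Chromosome 8 was left out of this last count.

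With 1 library left out or another scaling, the log2 fold change had the other sign in hosts that had not passed. Upon silencing *TRPS1* these were *PRLR* (0.25 without control replicate 2, lowest −0.98), *RAD51B* (−0.24 without control replicate 1 and −0.02 without *TRPS1* siRNA replicate 2, highest 0.98), *IGFBP4* (0.16, lowest −0.74) and *PPARD* (0.13, lowest −1) without control replicate 1, and *RERG* (−0.37 without control replicate 1 and −0.06 without *TRPS1* siRNA replicate 1, highest 0.82). Upon silencing *CHD4* these were *ARHGAP15* (−0.26 without control replicate 1 and −0.28 without *CHD4* siRNA replicate 1), *IGFBP4* (−0.15 without control replicate 2 and −0.06 without *CHD4* siRNA replicate 1, highest 0.76), *RERG* (0.01 with library sizes alone, 0.61 without control replicate 2 and 0.16 without *CHD4* siRNA replicate 2, lowest −0.57) and *INPP4B* (0.16 without control replicate 2, lowest −0.45). With 2 libraries per group and no replicate error for peaks, only large differences could be seen.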
